A study of Mus musculus with 6 samples.

Results

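Lipid-associated macrophages are phagocytes that take up lipid and cell debris in fatty, injured or tumour-bearing tissue, and in fibrotic liver they sit at scars. TREM2 is a surface receptor that binds lipids and lipoproteins and signals through the adaptor TYROBP, and GPNMB is a transmembrane glycoprotein of the lysosome and cell surface that such cells make in quantity. The set described here holds 9 genes of this cell state: Gpnmb, Trem2, Spp1, Cd9, Cd63, Lgals3, Fabp5, Lpl and Tyrobp. All 9 were found by symbol among the 18260 genes of the count table. They were picked because Gpnmb, Trem2 and Cd63 were higher in the Ripply1 knockout columns, so the difference between genotypes is a description for all 9 and no test of it is given. None of the 9 was chosen from cells: most are also made by cells other than macrophages (Cd9 and Cd63 widely, Spp1 in bile duct epithelium), and a bulk library cannot tell which cells a transcript came from.

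RNA was sequenced from primary hepatocytes of liver tumours that diethylnitrosamine (DEN) and phenobarbital (PB) had induced in male mice. The 3 Ripply1ΔHep libraries came from mice with floxed Ripply1 alleles and the Alb-Cre transgene, in which the albumin promoter drives Cre in hepatocytes, and the 3 Ripply1F/F libraries from mice with the floxed alleles and no Cre named in the labels. The floxed segment covers exons 1 to 3. All animals had DEN at 90 μg/g by intraperitoneal injection at 6 weeks of age, 3 weeks without treatment and 27 weeks on a diet with 0.05% PB, and cells were taken 30 weeks after DEN. The labels do not say whether the replicates of a genotype are separate animals, so the spread between them may be technical. The Cre is driven in hepatocytes and not in macrophages.

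Total counts ran from 31484308 to 35894395 in ΔHep libraries and from 27772849 to 32199523 in F/F libraries. Levels are given as CPM, counts scaled to a common library size with the TMM factors of edgeR, and 1 CPM stood for between 26.67 and 37.87 counts. Ripply1 had 1, 1 and 2 counts in ΔHep libraries and 13, 8 and 12 in F/F libraries, in the direction of the labels. The cell type label is hepatocyte, and the 9 hepatocyte markers summed to between 93430 and 124000 CPM in ΔHep libraries and between 108500 and 117300 CPM in F/F libraries. Macrophage transcripts were present beside them in every library. The 18 pan-macrophage markers in the table summed to 1027, 828 and 898 CPM in ΔHep replicates 1, 2 and 3, against 489, 485 and 826 CPM in F/F replicates 1, 2 and 3. F/F replicate 3 thus stood apart from the other F/F libraries and lay just below the ΔHep range. For markers of resident Kupffer cells it had 604.5 CPM, inside the ΔHep range of 513 to 694 CPM, while F/F replicates 1 and 2 had 239 and 277.5 CPM, so values without that library are given below. Fewer macrophages and less macrophage RNA per cell cannot be told apart in these bulk samples.

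All 9 genes passed the filter on low counts. Trem2 reached its level in 2 of 3 F/F libraries, so it passed only through the ΔHep libraries. All 9 had positive log2 fold changes, ΔHep over F/F, as had 48.8% of the 14552 genes tested, with a median of 1.04 against -0.01 over all tested genes. In 5 of 9 (Gpnmb, Trem2, Cd63, Cd9 and Lpl) every ΔHep library lay above every F/F library, which held for 15.3% of all tested genes. In edgeR 3 of 9 (Gpnmb, Trem2 and Cd63, the genes that led to the choice) had an adjusted p under 0.05 and were higher, where 1.51% of tested genes were called higher and 1.68% were called in either direction. That count of 3 was 0 without F/F replicate 1 or F/F replicate 2, 1 (Gpnmb) without ΔHep replicate 2 or ΔHep replicate 3, 4 without ΔHep replicate 1 and 6 without F/F replicate 3. Since the choice rested on this contrast, nothing is read from these counts.

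**Figure D1:**
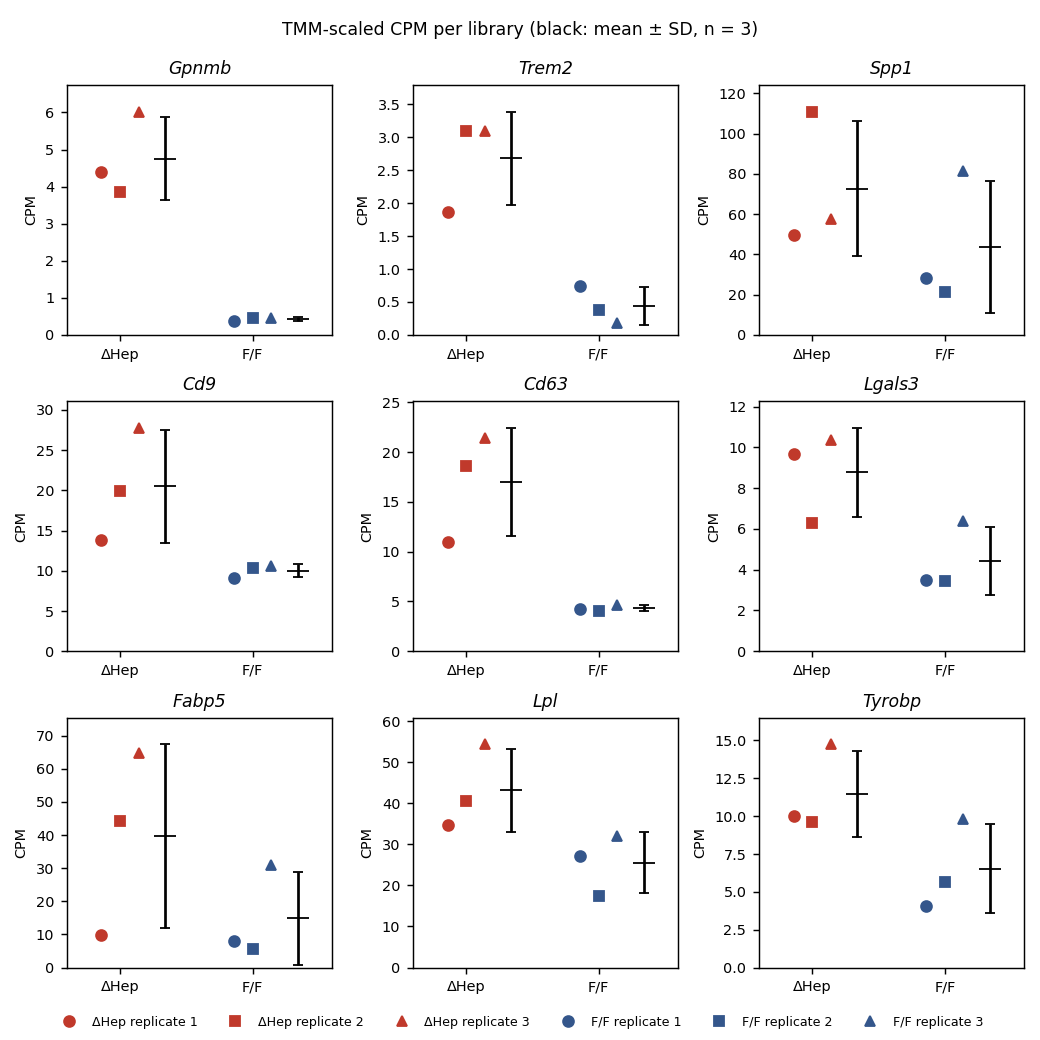
TMM-scaled CPM of each of the 9 genes (vertical axes, linear from 0) in the 3 ΔHep libraries (red) and the 3 F/F libraries (blue), with marker shapes for replicates and black bars for the mean ± SD (n = 3 each). Gpnmb, Trem2, Cd63, Cd9 and Lpl show no overlap between genotypes, while F/F replicate 3 reaches into the ΔHep range for Spp1, Lgals3, Fabp5 and Tyrobp.

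The promoters of the 3 genes that led to the choice are shown because those genes had the highest fold changes of the set, and the windows let their sequence be compared. Each is the 250 bases before the RefSeq start, 5′ to 3′ on the plus strand of GRCm38.p6: Gpnmb at chr6:49036268-49036517, Trem2 at chr17:48346151-48346400 and Cd63 at chr10:128909095-128909344, inside the longer GENCODE span of Cd63. Capitals mark matches, on either strand, to GAGGAA (the core bound by PU.1, a macrophage factor), TGANTCA (bound by AP-1), and CACGTG and CATGTG (E-boxes bound by MITF and TFE factors).
Gpnmb: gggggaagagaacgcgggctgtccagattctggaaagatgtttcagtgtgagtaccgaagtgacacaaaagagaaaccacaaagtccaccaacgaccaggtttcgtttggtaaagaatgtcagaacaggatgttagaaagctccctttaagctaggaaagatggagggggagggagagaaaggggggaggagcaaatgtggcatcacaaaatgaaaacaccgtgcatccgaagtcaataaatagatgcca
Trem2: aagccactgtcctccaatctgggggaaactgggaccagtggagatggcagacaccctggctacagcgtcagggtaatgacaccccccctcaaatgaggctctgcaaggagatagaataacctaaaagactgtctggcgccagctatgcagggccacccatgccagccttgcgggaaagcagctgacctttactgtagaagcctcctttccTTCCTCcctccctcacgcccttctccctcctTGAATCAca
Cd63: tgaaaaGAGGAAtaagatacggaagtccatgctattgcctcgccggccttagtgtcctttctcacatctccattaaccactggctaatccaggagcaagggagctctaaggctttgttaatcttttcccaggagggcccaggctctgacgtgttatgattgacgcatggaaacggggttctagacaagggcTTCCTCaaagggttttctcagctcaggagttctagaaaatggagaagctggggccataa

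Windows of the same kind were at hand for 6 of the 9 genes. Over all 32851 windows, GAGGAA was present in 23.3%, TGANTCA in 6.75%, CATGTG in 12.3% and CACGTG in 6.02%. GAGGAA was found in Cd63 on both strands, starting 244 and 59 bases before the start, in Trem2 on the minus strand 40 bases before it, and in 1 of 2 Spp1 windows. The sequence TGANTCA was found in Trem2, 9 bases before the start, where its reverse complement matches too. CATGTG was found in Cd9, and CACGTG in none of the 7 windows of the 6 genes. The Gpnmb and Lgals3 windows held none of the 4 motifs, which says only that these letters are not in those windows.

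Gpnmb showed the widest gap of the 9. It lies on chromosome 6 from 49036546 to 49070929 on the plus strand (GRCm38, the assembly of mm10). Counts were 148, 126 and 228 in ΔHep replicates 1, 2 and 3, against 10, 15 and 13 in F/F replicates 1, 2 and 3. Every ΔHep library was far above every F/F library, with the lowest ΔHep level 8.25 times the highest F/F level. Gpnmb averaged 4.75 ± 1.13 CPM in ΔHep and 0.436 ± 0.0531 CPM in F/F (SD, n = 3 each). The log2 fold change was 3.43 (SE 0.30). That fold change ranked 32 among the 14552 tested genes. The ratio of pooled counts was 11.0, with an exact 95% interval from 7.89 to 15.7 that covers counting error only. F/F libraries differed among themselves by little, with a coefficient of variation of 12.2%, and F/F replicate 3, rich in macrophage markers, had no more Gpnmb than F/F replicate 2 (0.466 and 0.467 CPM). Those 2 levels rest on 13 and 15 counts, so counting error limits the comparison.

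Trem2 lies on chromosome 17 from 48346401 to 48354147 on the plus strand. It had 63, 101 and 117 counts in ΔHep replicates 1, 2 and 3, against 20, 12 and 5 in F/F replicates 1, 2 and 3. The ranges did not overlap, but the F/F libraries spread 4.18-fold, and the lowest was replicate 3, the F/F library with the most macrophage markers. With 5 counts in that library, counting error limits this order. Mean levels were 2.68 ± 0.707 CPM in ΔHep and 0.434 ± 0.290 CPM in F/F (SD, n = 3 each). On the log2 scale the fold change was 2.63 (SE 0.49). Pooled counts gave a ratio of 6.31, with an exact 95% counting interval from 4.47 to 9.15. Leaving out F/F replicate 1 gave 3.24 on the log2 scale and leaving out F/F replicate 3 gave 2.26.

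Tyrobp, the adaptor through which TREM2 and several other myeloid receptors signal, had a smaller fold change. Its levels were 10.01, 9.64 and 14.7 CPM in ΔHep replicates 1, 2 and 3, against 4.09, 5.67 and 9.79 CPM in F/F replicates 1, 2 and 3. The ranges met at F/F replicate 3, the highest F/F library, and the log2 fold change was 0.82 (SE 0.32), or 1.22 without that library. Tyrobp spans 30413760 to 30417585 on the plus strand of chromosome 7, beside Hcst on the minus strand, which it does not overlap. Per kilobase of exon, Trem2 stood at 9.20%, 15.8% and 10.4% of Tyrobp in ΔHep replicates 1, 2 and 3, against 9.05%, 3.25% and 0.904% in F/F replicates 1, 2 and 3. F/F replicate 1 was thus close to the lowest ΔHep library in this proportion, and the other F/F libraries were well below it.

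Cd63 and Cd9 encode tetraspanins, membrane proteins with a pair of extracellular loops; CD63 marks lysosomes and exosomes, and CD9 sits at the cell surface. Cd63 had 10.96, 18.6 and 21.4 CPM in ΔHep replicates 1, 2 and 3, against 4.27, 4.05 and 4.62 CPM in F/F replicates 1, 2 and 3. The F/F libraries were nearly level, with a coefficient of variation of 6.70%, and the ΔHep libraries spread more, at 31.8%. The log2 fold change was 1.98 (SE 0.25). Cd9 had 13.8, 19.96 and 27.75 CPM in ΔHep replicates 1, 2 and 3, against 9.07, 10.4 and 10.5 CPM in F/F replicates 1, 2 and 3. Here too F/F libraries were close together (8.05%) and the lowest ΔHep library was 1.31 times the highest F/F library, with a log2 fold change of 1.04 (SE 0.24). Cd63 lies on chromosome 10 (128900989 to 128912822, plus strand) and Cd9 on chromosome 6 (125460266 to 125494791, minus strand). A processed pseudogene, Cd63-ps, has its own row with 30, 18 and 50 counts in ΔHep libraries and 3, 14 and 13 in F/F libraries. Reads that fit both copies could be split between them, and Cd63 had 370, 609 and 810 counts in ΔHep libraries, against 114, 130 and 129 in F/F libraries. Cd9 overlaps antisense transcripts, and its reads cannot be told from theirs if the counting ignored strand.

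The secreted members were less uniform. Spp1 encodes osteopontin, a matrix phosphoprotein and cytokine that binds integrins and CD44. It had 49.8, 110.9 and 57.5 CPM in ΔHep replicates 1, 2 and 3, against 28.4, 21.5 and 81.5 CPM in F/F replicates 1, 2 and 3. The groups overlapped, since F/F replicate 3 lay above 2 of the ΔHep libraries, and the log2 fold change was 0.73 (SE 0.49). It was 1.53 without F/F replicate 3 and 0.29 without ΔHep replicate 2. Markers of cholangiocytes, which also make osteopontin, summed to 46.0, 61.5 and 33.6 CPM in ΔHep replicates 1, 2 and 3, against 23.7, 29.3 and 26.25 CPM in F/F replicates 1, 2 and 3. ΔHep replicate 2 was highest in both, F/F replicate 3 was not high in the cholangiocyte sum, and the part of these cells in the Spp1 level was not tested. Lgals3 encodes galectin-3, a lectin that binds β-galactosides on damaged lysosomes and outside the cell. It had 9.66, 6.31 and 10.4 CPM in ΔHep replicates 1, 2 and 3, against 3.49, 3.43 and 6.38 CPM in F/F replicates 1, 2 and 3. ΔHep replicate 2 and F/F replicate 3 met, and the log2 fold change was 0.99 (SE 0.30), or 1.34 without F/F replicate 3. Spp1 lies on chromosome 5 (104435118 to 104441050, plus strand, where it overlaps Gm42793) and Lgals3 on chromosome 14 (47367751 to 47386160, plus strand).

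The genes of lipid handling differed in the same loose way. Lpl encodes lipoprotein lipase, which frees fatty acids from circulating triglyceride. It had 34.6, 40.5 and 54.35 CPM in ΔHep replicates 1, 2 and 3, against 27.1, 17.4 and 32.2 CPM in F/F replicates 1, 2 and 3. The ranges did not overlap, by a narrow margin of 1.08-fold, and the log2 fold change was 0.76 (SE 0.24). Fabp5 encodes a cytosolic fatty acid-binding protein. It had 9.78, 44.3 and 64.7 CPM in ΔHep replicates 1, 2 and 3, against 8.02, 5.70 and 31.1 CPM in F/F replicates 1, 2 and 3. Fabp5 was the most variable of the 9, with coefficients of variation of 70.1% in ΔHep and 93.9% in F/F. ΔHep replicate 1 was near the low F/F libraries and F/F replicate 3 within the ΔHep range. Its log2 fold change was 1.41 (SE 0.75), and it was 2.52 without F/F replicate 3 and 0.86 without ΔHep replicate 3. Fabp5 lies on chromosome 3 (10012548 to 10016607, plus strand) and Lpl on chromosome 8 (68880491 to 68907448, plus strand). Fabp5 has processed pseudogenes, so its counts are uncertain as far as reads fit those copies.

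**Figure D2:**
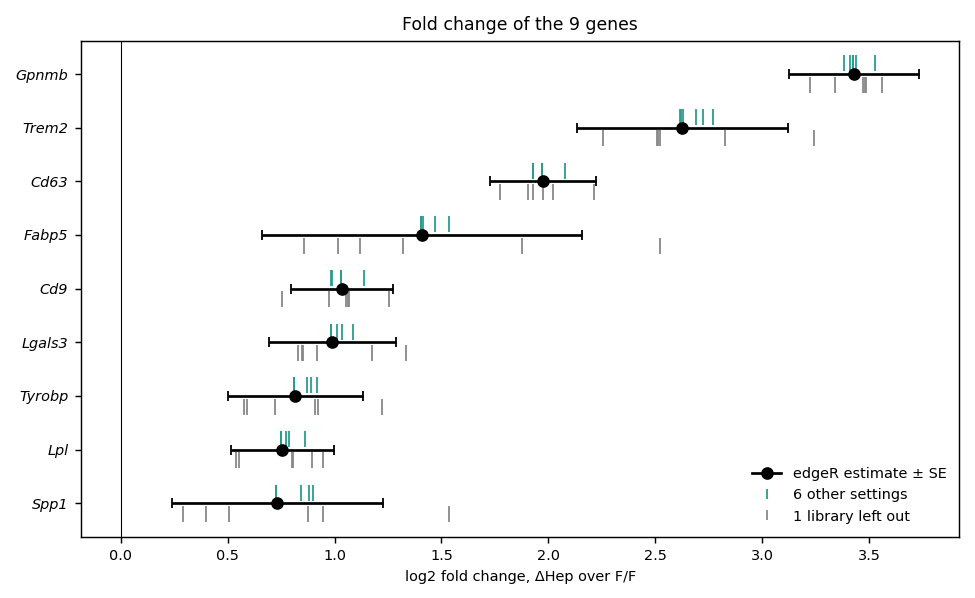
Log2 fold change, ΔHep over F/F (horizontal axis), of each of the 9 genes. Black dots are edgeR estimates with SE bars, green ticks other normalizations and methods, and grey ticks fits with 1 library left out. Every estimate is above 0, and leaving out 1 library moves Fabp5 between 0.86 and 2.52 but Gpnmb only between 3.22 and 3.56.

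The same libraries were the highest for most of the set. ΔHep replicate 3 was the highest ΔHep library for 7 of 9 genes, all but Spp1 and Trem2, and in Trem2 it was level with replicate 2 (both 3.09 CPM). F/F replicate 3 was the highest F/F library for 7 of 9, all but Gpnmb and Trem2. Likeness between genes was measured as the root-mean-square difference of centred log2 CPM over the 6 libraries. Values were centred on the mean of all 6 libraries, so the difference between genotypes is part of the measure. Genes with like fold changes thus come out near each other. The closest pair within the set was Lgals3 and Tyrobp (0.236), and the most distant were Trem2 and Fabp5 (1.44) and Gpnmb and Spp1 (1.40). Among 11567 other genes with a mean of at least 1 CPM, the nearest to Gpnmb were Sema3g (0.291), Mmp12 (0.352), Slamf7 (0.469), Sema4d (0.500) and Ms4a6b (0.512). Those nearest to Trem2 were C1qtnf7 (0.273), Fam19a2 (0.433), Ntrk2 (0.470), Ccnb1 (0.499) and Cdc20 (0.512). The lists for Gpnmb and Trem2 had no gene in common. Log2 fold changes ran from 2.47 (Sema4d) to 3.63 (Sema3g) near Gpnmb, and from 2.06 (C1qtnf7) to 2.34 (Cdc20) near Trem2.

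Levels were compared between genes per kilobase of merged exon. In ΔHep libraries the order of mean CPM per kilobase was Spp1 (44.1), Fabp5 (40.1), Tyrobp (20.3), Cd9 (16.7), Cd63 (11.7), Lpl (10.5), Lgals3 (5.52), Trem2 (2.35) and Gpnmb (1.05). From Spp1 down to Lpl the ranges of neighbours overlapped, and from Lpl down to Gpnmb no neighbours overlapped. In F/F libraries the order was Spp1 (26.6), Fabp5 (15.1), Tyrobp (11.55), Cd9 (8.14), Lpl (6.22), Cd63 (2.98), Lgals3 (2.79), Trem2 (0.380) and Gpnmb (0.0966). There Lpl and Cd63, Lgals3 and Trem2, and Trem2 and Gpnmb were apart, and the other neighbours overlapped. Gpnmb and Trem2, with the highest fold changes, were thus the scarcest of the set in both genotypes.

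**Figure D3:**
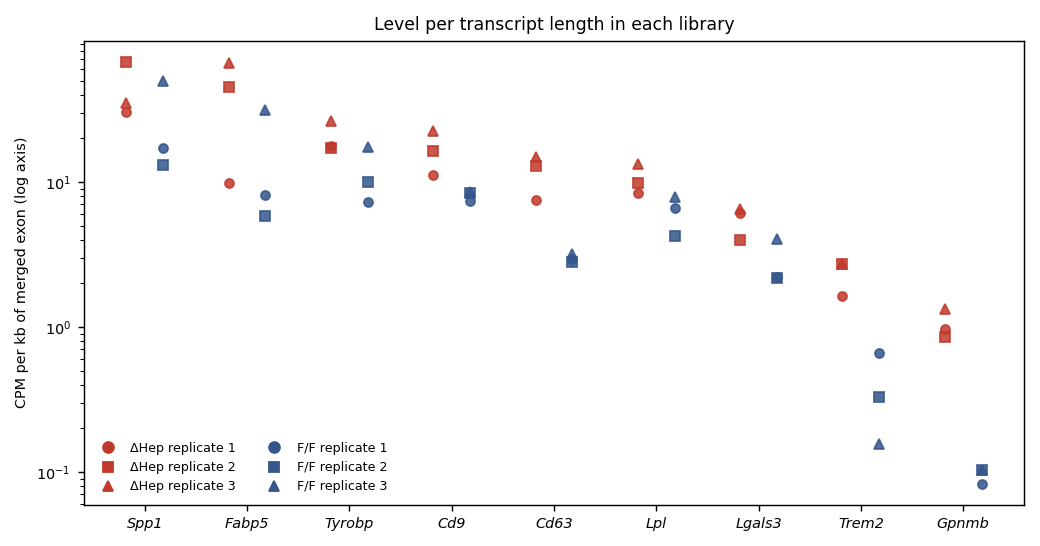
CPM per kilobase of merged exon (vertical log axis) of the 9 genes in each ΔHep library (red) and each F/F library (blue), ordered by the ΔHep mean. Spp1 and Fabp5 lead with wide spreads, and Trem2 and Gpnmb are lowest in both genotypes.

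The level of each gene was set against the summed pan-macrophage markers of the same library, because that sum was higher in ΔHep (918 CPM) than in F/F (600.0 CPM) on average. Gpnmb remained apart on this scale. It stood at 0.427%, 0.466% and 0.670% of the marker sum in ΔHep replicates 1, 2 and 3, against 0.0767%, 0.0964% and 0.0564% in F/F replicates 1, 2 and 3, a mean log2 difference of 2.77. Trem2 (2.17) and Cd63 (1.27) also had ranges that did not overlap. For Trem2 the margin was narrow, with 0.182% in ΔHep replicate 1 against 0.153% in F/F replicate 1. The ranges of the other 6 overlapped, with mean log2 differences of 0.78 for Fabp5, 0.36 for Lgals3, 0.33 for Cd9, 0.24 for Spp1, 0.23 for Tyrobp and 0.12 for Lpl. The denominator mattered. Against Adgre1 and Csf1r alone, the receptors most used to mark macrophages, Gpnmb still did not overlap (2.37), Trem2 (1.77) and Cd63 (0.87) did, and Spp1 (-0.17), Cd9 (-0.08), Lgals3 (-0.04), Lpl (-0.28) and Tyrobp (-0.17) were below 0. Against the summed Kupffer cell markers, a choice made after seeing the data, Gpnmb alone did not overlap, with a difference of 2.67.

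**Figure D4:**
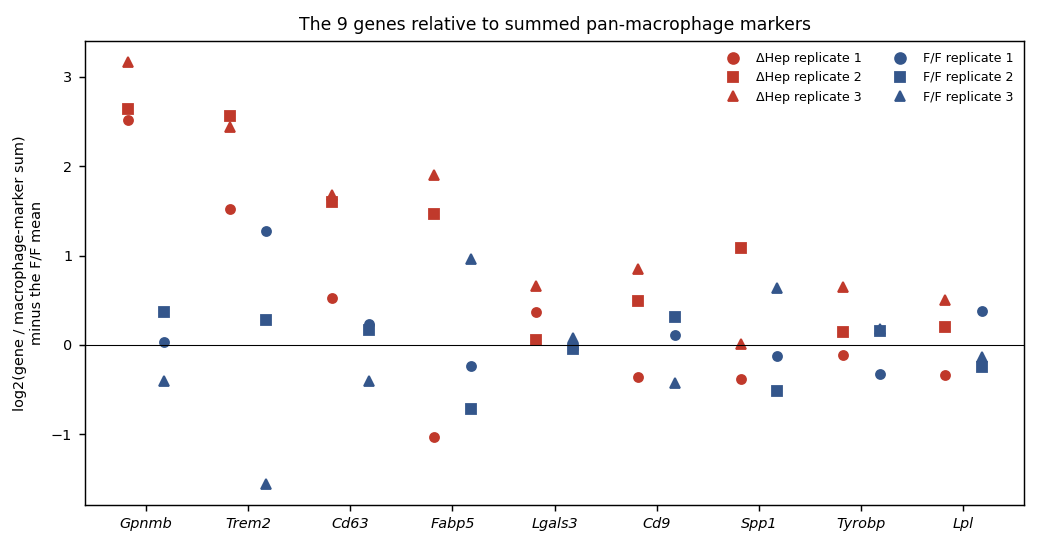
Log2 ratio of each gene to the summed pan-macrophage markers in the same library, minus the F/F mean of that gene (vertical axis), for ΔHep (red) and F/F (blue) libraries. Gpnmb, Trem2 and Cd63 keep ΔHep above F/F, and the other 6 genes overlap.

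Other genes of lipid-associated and disease-associated macrophages, which the choice of the 9 did not use by name, were tested in the same fit over all genes. This list and those below were drawn up with earlier results of these data known, and they use the contrast that led to the choice. Their p values are therefore a description and not independent support. Of 21 tested, 2 rose, 0 fell and 19 did not pass, with a median log2 fold change of 0.41. At an unadjusted p under 0.05, 11 were higher, DESeq2 called 10 higher and limma-voom 0. Over all tested genes, edgeR called 220 higher, DESeq2 1070 and limma-voom 76. The share of all tested genes at an unadjusted p under 0.05 is not given. Counts at that cutoff, here and below, thus cannot be set against the whole table, and nothing is read from them. Itgax, the integrin CD11c of dendritic cells and activated macrophages, averaged 4.802 ± 1.36 CPM in ΔHep and 1.17 ± 0.322 CPM in F/F (SD, n = 3 each; log2 fold change 2.03, SE 0.32, edgeR adjusted p = 0.0329). Mmp12, the macrophage metalloelastase, averaged 4.68 ± 3.00 CPM in ΔHep and 0.467 ± 0.116 CPM in F/F (log2 fold change 3.31, SE 0.51, edgeR adjusted p = 0.0329). Both lay higher in 3 of 3 ΔHep libraries than in any F/F library. Neither passed in limma-voom, with adjusted p = 0.0524 for Itgax and adjusted p = 0.0714 for Mmp12. Across all pathway lists below, 3 of 86 tested genes passed. That count was 0 without ΔHep replicate 2, ΔHep replicate 3, F/F replicate 1 or F/F replicate 2, and 22 higher and 2 lower without F/F replicate 3. Itgax had edgeR adjusted p values between 0.014 and 0.156 and Mmp12 between 0.0235 and 0.155 over the 6 fits that leave out 1 library.

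Genes listed for TREM2 and TYROBP signalling or shedding of the receptor, whether they carry or restrain the signal, had positive log2 fold changes in 14 of 14. None of 14 passed in edgeR (0), with 9 higher at an unadjusted p under 0.05, 2 higher in DESeq2, 0 in limma-voom and a median of 1.08. The most abundant were Adam10, a sheddase of TREM2, at 55.9 ± 1.80 CPM in ΔHep and 46.4 ± 7.08 CPM in F/F (log2 fold change 0.27, adjusted p = 0.256), and the kinase Lyn, at 46.1 ± 2.27 CPM in ΔHep and 40.8 ± 1.20 CPM in F/F (0.18, adjusted p = 0.313). Both lay well below the median of the list. Genotypes overlapped only for Adam10, Adam17 and Dok3. Among the rest were Inpp5d (log2 fold change 1.41), Plcg2 (1.13), Syk (1.03) and Vav1 (0.965), which were not called. Of other receptors of the TREM family or coupled to TYROBP, 8 of 11 were in the table and 6 were tested. None passed in edgeR (0), with 3 higher at an unadjusted p under 0.05, 1 in DESeq2 and 0 in limma-voom, and a median of 1.00. Treml4 stood at 4.75 ± 1.42 CPM in ΔHep and 2.99 ± 1.604 CPM in F/F (adjusted p = 0.358) and Klrk1 at 2.11 ± 0.372 CPM in ΔHep and 1.09 ± 0.248 CPM in F/F (adjusted p = 0.144). MITF and the TFE factors drive lysosomal genes and, in other settings, Gpnmb. None of 4 passed in edgeR (0, also at an unadjusted p under 0.05, in DESeq2 and in limma-voom), with a median of 0.07; Tfe3 stood at 27.4 ± 2.80 CPM in ΔHep and 25.2 ± 0.851 CPM in F/F (adjusted p = 0.591) and Tfeb at 11.96 ± 1.98 CPM in ΔHep and 11.9 ± 1.57 CPM in F/F (adjusted p = 0.974).

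Partners and relatives of the other members gave few calls. Of 11 tested partners and regulators of LPL none passed in edgeR (0), with 2 higher and 4 lower at an unadjusted p under 0.05, 3 lower in DESeq2, 0 in limma-voom and a median of -0.24. The most abundant were Apoa5, an activator of LPL, at 1176 ± 209 CPM in ΔHep and 1436 ± 347 CPM in F/F (adjusted p = 0.474), and Apoc3, an inhibitor, at 729 ± 85.7 CPM in ΔHep and 863 ± 118 CPM in F/F (adjusted p = 0.395). Of 7 osteopontin receptors none passed in edgeR (0), with 4 higher at an unadjusted p under 0.05, 3 in DESeq2, 0 in limma-voom and a median of 0.74. Integrin Itgb1 stood at 250.3 ± 25.3 CPM in ΔHep and 230.1 ± 34.7 CPM in F/F (adjusted p = 0.667) and Itgb5 at 72.65 ± 9.98 CPM in ΔHep and 50.7 ± 5.98 CPM in F/F (adjusted p = 0.0873). Of 16 other tetraspanins 1 rose and 15 did not pass, with 8 higher at an unadjusted p under 0.05, 4 in DESeq2, 0 in limma-voom and a median of 0.36. It was Tspan8, an epithelial tetraspanin that is also a cholangiocyte marker, at 5.15 ± 3.48 CPM in ΔHep and 0.685 ± 0.0633 CPM in F/F (log2 fold change 2.90, SE 0.51, edgeR adjusted p = 0.039, between 0.0341 and 0.17 with 1 library left out, and 0.0915 in limma-voom). Of 9 other fatty acid-binding proteins and galectins none passed in edgeR (0), with 2 higher at an unadjusted p under 0.05, 2 in DESeq2 and 0 in limma-voom. Their median was -0.02, and 0.07 with library totals only. Fabp1, the liver form, stood at 1935 ± 718 CPM in ΔHep and 1979 ± 185 CPM in F/F (adjusted p = 0.957) and Lgals9 at 264 ± 6.61 CPM in ΔHep and 239 ± 40.4 CPM in F/F (adjusted p = 0.583).

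Markers of the cells that could carry the 9 genes were counted in the same fit. No pan-macrophage marker passed in edgeR (0 of 18), with 12 higher at an unadjusted p under 0.05, 7 in DESeq2, 0 in limma-voom and a median of 0.86. Log2 fold changes were positive in 17 of 18, and Laptm5 was at -1.455 (edgeR adjusted p = 0.415). Mpeg1, a pore-forming protein of phagocytes, stood at 167 ± 23.8 CPM in ΔHep and 98.4 ± 60.1 CPM in F/F (adjusted p = 0.265). No Kupffer cell marker passed (0 of 10), with 4 higher at an unadjusted p under 0.05, 3 in DESeq2, 0 in limma-voom and a median of 0.73. Here 9 of 10 had positive log2 fold changes, with Timd4 at 0.19, and Cd163 was at -0.836 (edgeR adjusted p = 0.347). Clec4f, a lectin found on Kupffer cells, stood at 154 ± 31.0 CPM in ΔHep and 106 ± 55.05 CPM in F/F (adjusted p = 0.371), and Cd5l at 151 ± 29.9 CPM in ΔHep and 84.55 ± 55.6 CPM in F/F (adjusted p = 0.259). Of 8 monocyte markers 3 rose, with 6 higher at an unadjusted p under 0.05, 6 in DESeq2, 2 in limma-voom and a median of 2.30. They were the chemokine receptors Cx3cr1 (5.95 ± 1.83 CPM in ΔHep and 0.966 ± 0.382 CPM in F/F, adjusted p = 0.0329) and Ccr2 (5.26 ± 2.35 CPM in ΔHep and 1.13 ± 0.223 CPM in F/F, adjusted p = 0.0383), and Plac8 (13.1 ± 0.606 CPM in ΔHep and 4.38 ± 1.86 CPM in F/F, adjusted p = 0.0366). Summed monocyte markers were 27.85, 29.6 and 36.6 CPM in ΔHep replicates 1, 2 and 3, against 6.34, 6.17 and 11.2 CPM in F/F replicates 1, 2 and 3. Without F/F replicate 3, 14 pan-macrophage, 8 Kupffer cell and 4 monocyte markers were called higher. With ΔHep replicate 2, ΔHep replicate 3, F/F replicate 1 or F/F replicate 2 left out, 0 of each were.

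**Figure D5:**
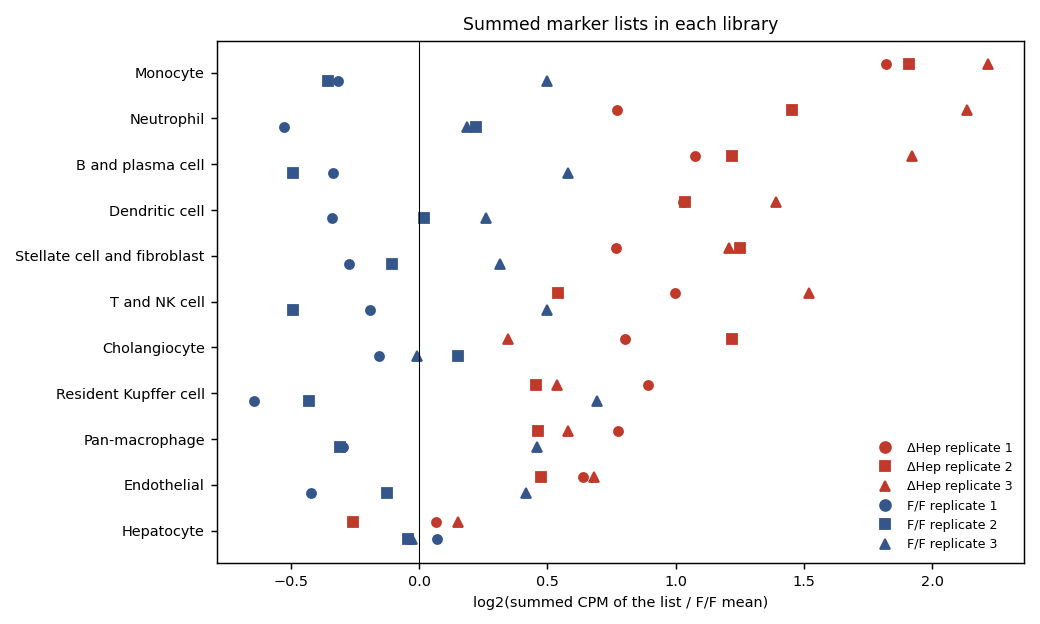
Log2 of the summed CPM of each marker list over its F/F mean (horizontal axis) in each ΔHep (red) and F/F (blue) library. Monocyte sums are farthest apart, hepatocyte sums overlap, and F/F replicate 3 lies within the ΔHep range for Kupffer cell markers.

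Markers of other cell types differed in the same libraries, and their part in the levels of the 9 genes was not tested. Of 7 dendritic cell markers 1 rose, the invariant chain Cd74 (119 ± 21.7 CPM in ΔHep and 48.9 ± 9.85 CPM in F/F, adjusted p = 0.0329). At an unadjusted p under 0.05, 1 was higher, with 1 in DESeq2, 1 in limma-voom and a median of 1.15. The list summed to between 123 and 158.5 CPM in ΔHep and between 47.8 and 72.5 CPM in F/F, and Cd74 made up most of that sum. Genotypes overlapped for Xcr1, Clec9a and Zbtb46 (edgeR adjusted p = 0.347, 0.334 and 0.578). They did not overlap for Flt3, Cd209a and H2-Ab1, which were not called. Of 12 stellate cell and fibroblast markers 6 rose, with 12 higher at an unadjusted p under 0.05, 12 in DESeq2, 1 in limma-voom and a median of 1.13. They included the proteoglycans Lum (log2 fold change 1.49, adjusted p = 0.0329) and Dcn (log2 fold change 0.73, adjusted p = 0.0431), the collagen Col1a2 (log2 fold change 1.61, adjusted p = 0.0383) and Pdgfra (log2 fold change 1.26, adjusted p = 0.0417). Their summed level was 643 to 898 CPM in ΔHep and 312 to 469 CPM in F/F. Of 8 tested cholangiocyte markers 5 rose, with 6 higher at an unadjusted p under 0.05, 6 in DESeq2, 0 in limma-voom and a median of 2.01. Among them were Prom1 (log2 fold change 2.54, adjusted p = 0.0329), Krt19 (log2 fold change 2.47, adjusted p = 0.0346), Krt7 (log2 fold change 1.95, adjusted p = 0.0449) and Tspan8. Of 10 endothelial markers 1 rose, the co-receptor Eng (132 ± 11.6 CPM in ΔHep and 79.25 ± 13.3 CPM in F/F, adjusted p = 0.0457), with 7 higher at an unadjusted p under 0.05, 2 in DESeq2, 0 in limma-voom and a median of 0.65. The list summed to between 684 and 788 CPM in ΔHep and between 367 and 656 CPM in F/F. Calls of these markers fell to 0 with ΔHep replicate 2, ΔHep replicate 3, F/F replicate 1 or F/F replicate 2 left out, and over all 13 marker lists 51 markers were called higher, against 16, without F/F replicate 3. No neutrophil (0 of 2 tested), T and NK cell (0 of 6) or B and plasma cell (0 of 5) marker passed in edgeR, with 2, 3 and 4 higher at an unadjusted p under 0.05, 1 each in DESeq2 and 0 in limma-voom. Their medians were 1.51, 1.61 and 1.69. Neutrophil markers summed to between 4.24 and 10.9 CPM in ΔHep and between 1.72 and 2.90 CPM in F/F, T and NK cell markers to between 5.42 and 10.7 CPM in ΔHep and between 2.65 and 5.27 CPM in F/F, and B and plasma cell markers to between 14.9 and 26.9 CPM in ΔHep and between 5.05 and 10.6 CPM in F/F. No marker in the table was at 0 in all 6 libraries. Csf3r of neutrophils stood at 3.91 ± 0.337 CPM in ΔHep and 1.66 ± 0.400 CPM in F/F (adjusted p = 0.059), and S100a9 at 1.62 ± 1.43 CPM in ΔHep and 0.468 ± 0.147 CPM in F/F. Cd4 stood at 2.38 ± 0.353 CPM in ΔHep and 1.72 ± 0.878 CPM in F/F, Nkg7 at 1.45 ± 0.716 CPM in ΔHep and 0.486 ± 0.364 CPM in F/F, Jchain at 14.6 ± 2.36 CPM in ΔHep and 5.65 ± 2.81 CPM in F/F, and Cd79a at 1.44 ± 1.43 CPM in ΔHep and 0.537 ± 0.342 CPM in F/F.

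Gpnmb is also a melanosome protein and Lpl an adipocyte enzyme, so markers of those cells were looked at. Of 5 melanocyte markers 2 were in the table, and their log2 fold changes had opposite signs. Dct stood at 1.02 ± 0.870 CPM in ΔHep and 6.09 ± 2.49 CPM in F/F (adjusted p = 0.0938), and Pmel at 0.432 ± 0.0113 CPM in ΔHep and 0.153 ± 0.0520 CPM in F/F (adjusted p = 0.157). Pmel rests on 15, 14 and 16 counts in ΔHep replicates 1, 2 and 3, against 5, 3 and 5 in F/F replicates 1, 2 and 3. Counting error thus limits it. Of 5 adipocyte markers only Cfd was in the table, at 0.455 ± 0.611 CPM in ΔHep and 4.29 ± 2.69 CPM in F/F (adjusted p = 0.11). Its counts were 39, 6 and 1 in ΔHep replicates 1, 2 and 3, against 130, 213 and 38 in F/F replicates 1, 2 and 3. None of these 3 passed in edgeR (0), where 1 was higher and 2 lower at an unadjusted p under 0.05, with 0 in DESeq2 and limma-voom. No hepatocyte marker passed in edgeR (0 of 9), with 1 lower at an unadjusted p under 0.05, 0 in DESeq2 and limma-voom, and a median of -0.04 that was 0.05 with library totals only. Alb stood at 84890 ± 13010 CPM in ΔHep and 84520 ± 3771 CPM in F/F (adjusted p = 0.99) and Apoa1 at 6527 ± 775 CPM in ΔHep and 6763 ± 62.6 CPM in F/F (adjusted p = 0.88).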

How the data were processed

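Messenger RNA was measured by sequencing in 6 libraries, 3 per genotype, grouped by their titles. The authors deposited raw read counts per gene symbol. Reads were aligned to mm10 with HISAT2 2.0.4, per the submitters' processing notes; how reads were counted (program, annotation, strand, filters) is not given in the sources used here, so overlapping genes and near-identical copies are uncertain.

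Counts were fitted over the whole table with edgeR 4.0.16 in R 4.3.3 (filterByExpr at its minimum count, 10, and its minimum total count, 15, TMM scaling, two-sided quasi-likelihood F test, Benjamini-Hochberg adjustment over 14552 genes, threshold 0.05). The common biological coefficient of variation was 21.5%. Each SE is the log2 fold change divided by the square root of F. The fits were run on simulated counts with the common dispersion for all genes and independent libraries. Such counts hold no shift shared by many genes, so they say nothing on calls that depend on which library is left out. DESeq2 1.42.0, limma-voom (limma 3.58.1), size factors of DESeq2 in edgeR, library totals, no filter, a replicate block and each library left out served as alternatives. Libraries of a genotype differed far beyond counting noise (chi-square over degrees of freedom from 17.92 to 106), so all were kept. The labels name no batch.

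The 9 genes and the 21 lists (8 of pathway genes, 13 of cell type markers) were chosen with earlier results of these data known. From each list, up to 4 genes past the threshold are named by lowest adjusted p, or else the 2 with the highest mean CPM; 1 marker named by this rule is not reported here. Log2 CPM values for likeness used a prior count of 2 and left out predicted genes. Exon lengths and positions are from GENCODE M21; promoters are from RefSeq GRCm38.p6.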

Additional observations from a re-analysis of the deposited data

How the results depend on the processing

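Fold changes of the 9 genes were positive in all 12 alternatives. Counts of calls moved. Of all tested genes, 220 were called higher and 24 lower; library totals only gave 615 higher, DESeq2 1070 higher and 239 lower, limma-voom 76 higher and 12 lower. Leaving out 1 library gave 0 to 1022 higher and 1 to 224 lower. Of pathway list genes, 3 were called higher and 0 lower, against 14 higher with library totals only, 21 higher and 3 lower with DESeq2, 0 with limma-voom, and 0 to 22 higher and 0 to 2 lower with 1 library left out. Of markers of cell types, 16 were called higher, against 25 with library totals only, 40 with DESeq2, 4 with limma-voom, 15 with the replicate block and 0 to 51 with 1 library left out. Of the 9 genes, 3 were called, against 6 with DESeq2 and 0 to 6 with 1 library left out. Their median log2 fold change ran from 0.86 to 1.53 with 1 library left out. The replicate numbers gave no sign of pairing: deviations from the group means correlated at 0.113, -0.0689 and -0.00898 between same-numbered libraries. Between differently numbered libraries they ran from -0.119 to 0.13. With 3 libraries per genotype a weak pairing could go unseen. With the replicate block 6 pathway list genes were higher and 1 lower, and 2 of the 9 genes were called, Gpnmb and Cd63. The median log2 difference per macrophage-marker read, 0.36, was 0.22 to 0.67 with 1 library left out and -0.041 against Adgre1 and Csf1r alone.

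Uncalled genes near 0 changed sign. With 1 library left out, log2 fold changes ran from -0.082 to 0.142 for Tfeb, -0.376 to 0.151 for Fabp1, -0.086 to 0.124 for Alb and -0.154 to 0.006 for Apoa1. With library totals only Fabp1 was at 0.065 and Apoa1 at 0.045. Alb was at -0.001 with no filter, -0.005 with limma-voom and -0.005 with the replicate block. The cause of these moves was not tested. Counting error limits Trem2 and Gpnmb in F/F libraries, with 5 to 20 counts each.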
